A study of Homo sapiens with 6 samples.

Results

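Tubulin genes were described in HGC-27 cells, a human gastric cancer cell line, by finding 10 named alpha and beta tubulin genes by symbol among the 62443 genes of the deposited expression table. The alpha genes were TUBA1A, TUBA1B, TUBA1C and TUBA4A, and the beta genes were TUBB, TUBB2A, TUBB2B, TUBB3, TUBB4B and TUBB6. Bulk RNA-sequencing values were given for 3 control libraries (Con), whose treatment is labelled none and which the methods of the study describe as receiving the peptide's buffer, and for 3 libraries from cells given the GLUP peptide (GLUP). GLUP is a cyclic peptide built from the TEAD4-contacting stretch of the co-repressor VGLL4 and meant to draw TEAD4 molecules together, TEAD4 being a Hippo-pathway transcription factor. Dose and exposure time are not in the labels, and the text of the study gives more than 1 exposure time. All libraries came from the same cell line. The methods of the study mention biological replicates, but nothing in the labels says which libraries came from separate cultures, so the p-values below measure the spread between these libraries, which may be technical. Values are FPKM, that is, fragments scaled to transcript length and to the mapped total of the library, so that levels can be set side by side between genes. The number of reads is unknown, and in bulk RNA a change in the kinds of cells present and a change in RNA per cell cannot be told apart.

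Microtubules are polymers of a dimer of 1 alpha and 1 beta tubulin, and each subunit is encoded by several genes whose products, called isotypes, differ mainly in a short acidic tail at the C terminus. Dividing cells use microtubules to build the mitotic spindle, and drugs such as taxanes and vinca alkaloids act on the beta subunit. Tubulin mRNA is also under a feedback loop called autoregulation: when free dimers accumulate, the factor TTC5 recognises the start of the nascent tubulin chain at the ribosome and the message is degraded with the help of the CCR4-NOT complex.

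The beginning of the coding sequence is shown first because autoregulation reads the chain that these codons encode. The first 12 coding bases, or 4 codons, of the annotated main transcripts (GENCODE release 44 lifted to GRCh37) are given 5′ to 3′ with capitals at the positions that vary within the alpha or the beta group.
TUBA1A, TUBA1B and TUBA1C: atgcgtgaGtgc
TUBA4A: atgcgtgaAtgc
TUBB and TUBB4B: atgAgGgaAatc
TUBB2A: atgCgCgaGatc
TUBB2B: atgCgTgaGatc
TUBB3 and TUBB6: atgAgGgaGatc
The 4 alpha genes shared 11 of the 12 positions, and the 6 beta genes shared 9 of the 12 and had 4 distinct starts. The varying bases do not change the encoded amino acids, so the start of the chain is the same within each group.

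The end of the coding sequence of 5 beta genes is shown because it encodes the tail by which isotypes are told apart, and because it bears on how well reads can be assigned. The last 63 coding bases are printed on the coding strand, stop codon included, with capitals at the last codon before the stop.
TUBB (GRCh37 chr6:30692112-30692174, plus strand): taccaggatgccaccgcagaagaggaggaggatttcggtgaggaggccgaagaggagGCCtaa
TUBB2A (GRCh37 chr6:3154097-3154159, minus strand): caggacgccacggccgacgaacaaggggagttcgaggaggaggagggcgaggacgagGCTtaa
TUBB2B (GRCh37 chr6:3224985-3225047, minus strand): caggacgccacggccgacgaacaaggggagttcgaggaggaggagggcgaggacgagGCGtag
TUBB3 (GRCh37 chr16:90002150-90002212, plus strand): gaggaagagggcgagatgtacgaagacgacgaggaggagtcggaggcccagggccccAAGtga
TUBB4B (GRCh37 chr9:140137946-140138008, plus strand): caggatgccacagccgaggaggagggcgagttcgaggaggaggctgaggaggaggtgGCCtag
The ends of TUBB2A and TUBB2B differed at 2 of the 63 positions, and those of TUBB and TUBB3 at 36. Over the whole coding sequence, TUBA1A and TUBA1B were 97.2% identical, TUBB2A and TUBB2B 98.1%, and the other pairs of beta genes 81.0% to 87.7%. TUBA4A was 84.4% to 85.7% identical to the other alpha genes.

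Before the tubulin values, the libraries themselves need describing. On the log2 scale, the mean correlation of a library with the other 5 over 7406 tested genes was 0.898 for Con 2 and 0.954 to 0.964 for the others. The libraries also differed by base composition: the deviation of a gene from its mean correlated with transcript GC content at Spearman rho -0.339 in Con 1 and -0.595 in Con 2, and at 0.338 to 0.540 in Con 3 and the 3 GLUP libraries (7388 genes, a description over genes that share their libraries). Con 3 therefore stood with the GLUP libraries on this measure. Mitochondrially encoded genes held 21.9% to 29.7% of the FPKM. The defining epithelial markers CDH1 and EPCAM were at or below 0.124 FPKM in every library, too low to be tested. Their means were lower in GLUP, at 0.0544 and 0 FPKM in Con and GLUP for CDH1 and 0.0668 and 0.015 for EPCAM. The 6 epithelial markers summed to 9.82 to 11.5 FPKM in Con and 11.1 to 12.6 in GLUP. KRT18 stood at 0.957, 1.00 and 0.917 FPKM in Con and 2.25, 1.64 and 2.51 in GLUP (log2 fold change 0.67, limma adjusted p = 0.194). The Con means of KRT18 and KRT19 were 0.959 and 0.865 FPKM. Both therefore reached the minimum mean of 1 FPKM over the 6 libraries only through GLUP, and their differences are no independent support. KRT8 and KRT19 were also higher in every GLUP library than in every Con library, as were 7.55% of all tested genes, while KRT7 overlapped (-0.20). The median log2 fold change of the 4 tested epithelial markers, KRT18 and KRT19 among them, was 0.36. It was 0.02 with a trend in GC content and transcript length removed from each library. The part of these marker differences in the tubulin values was not tested. Of the mesenchymal markers, VIM was at 222 to 387 FPKM, SPARC at 5.27 to 12.5, FN1 at 0.644 to 3.25 and CDH2 at or below 0.0508. None of the 11 neuronal markers passed the minimum mean of 1 FPKM used for testing. CHGA, DCX and STMN2 were at 0 in all 6 libraries, and the neuronal sum was 1.03 to 2.18 FPKM in Con and 0.547 to 1.09 in GLUP. Of 7 immune, endothelial and red cell markers found, HBA1 alone passed it, at 3.04 to 16.4 FPKM in Con and 10.7 to 17.5 in GLUP.

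TUBA1B, the most abundant of the 10 genes, encodes a ubiquitous alpha tubulin (GRCh37 chr12:49521565-49525180, minus strand, 4 exons in its main transcript). It stood at 819, 258 and 1687 FPKM in Con 1 to 3 and at 3342, 2559 and 3044 in GLUP 1 to 3. The groups did not overlap, and the lowest GLUP library was 1.52 times the highest Con library. The means were 921 ± 720 and 2982 ± 395 FPKM (SD, n = 3 each), a 3.24-fold ratio, and the log2 fold change was 2.06 (SE 0.55, limma unadjusted p = 0.00399, adjusted p = 0.194 over all genes tested). The fitted changes are differences of mean log2(FPKM + 1), which understate the change of low genes. Among nuclear protein-coding genes, TUBA1B ranked 142, 317 and 77 by FPKM in the Con libraries and 30, 43 and 43 in the GLUP libraries.

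TUBA1A, the alpha gene known for its role in neuronal migration and mutated in cortical malformations, lies in the same cluster on chromosome 12 (chr12:49578469-49582863, minus strand). It stood at 147, 39.4 and 222 FPKM in Con and 547, 412 and 469 in GLUP. Each GLUP library was above each Con library, and GLUP's lowest value was 1.86 times Con's highest. The means were 136 ± 91.9 and 476 ± 67.5 FPKM, and the log2 fold change was 2.10 (SE 0.54, limma unadjusted p = 0.0032, adjusted p = 0.194), the 7th largest value among the 7406 genes. TUBA1C, a broadly expressed alpha gene on the opposite strand of the same cluster (chr12:49582519-49668383), stood at 50.5, 25.4 and 93.4 FPKM in Con and 146, 121 and 123 in GLUP. Its groups did not overlap either, with a log2 fold change of 1.37 (SE 0.44, limma unadjusted p = 0.0105, adjusted p = 0.194). TUBA4A, an isotype abundant in platelets, was close to the minimum mean of 1 FPKM. It stood at 1.19, 0.217 and 1.65 FPKM in Con and 2.06, 1.17 and 1.36 in GLUP, so the groups overlapped and the log2 fold change was 0.38 (SE 0.31, limma adjusted p = 0.436).

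TUBB, the constitutive beta tubulin of most proliferating cells (chr6:30685212-30693315, plus strand), was the most abundant beta gene. It stood at 123, 68.0 and 166 FPKM in Con and 242, 192 and 159 in GLUP. GLUP 3 lay below Con 3, and the means of 119 ± 49.0 and 198 ± 41.7 FPKM gave a log2 fold change of 0.80 (SE 0.37, limma unadjusted p = 0.059, adjusted p = 0.242). TUBB4B, a widely expressed beta isotype also found in cilia (chr9:140135739-140138159, plus strand), stood at 25.8, 18.5 and 37.6 FPKM in Con and 61.1, 54.2 and 39.2 in GLUP. Its groups did not overlap, but the margin was narrow, with GLUP 3 at 1.04 times Con 3. The log2 fold change was 0.92 (SE 0.35, limma unadjusted p = 0.0241, adjusted p = 0.198).

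The near-identical pair TUBB2A and TUBB2B, beta isotypes best known from brain, lay within the same stretch of chromosome 6 (chr6:3153731-3157778 and chr6:3223558-3231964, both minus strand). TUBB2A stood at 6.22, 3.11 and 11.5 FPKM in Con and 16.0, 13.3 and 10.6 in GLUP, with a log2 fold change of 0.98 (SE 0.40, limma unadjusted p = 0.0365, adjusted p = 0.210). TUBB2B stood at 11.6, 6.23 and 19.8 FPKM in Con and 25.1, 18.8 and 16.5 in GLUP, with 0.76 (SE 0.40, limma adjusted p = 0.275). Con 3 lay inside the GLUP range in both genes. TUBB3, the beta isotype used as a neuronal marker and studied in taxane resistance (chr16:89987800-90005169, plus strand), stood at 3.35, 1.73 and 5.38 FPKM in Con and 7.54, 6.51 and 4.80 in GLUP. Its groups overlapped through Con 3 and GLUP 3, and the log2 fold change was 0.76 (SE 0.35, limma unadjusted p = 0.0534, adjusted p = 0.236). TUBB6, a further beta isotype (chr18:12307668-12344319, plus strand), was the single member below the minimum. Its listed values were 0.186, 0 and 0.0681 FPKM for Con and 0.0611, 0 and 0 for GLUP, and no fold is given because a listed 0 can be a failed estimate.

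**Figure D1:**
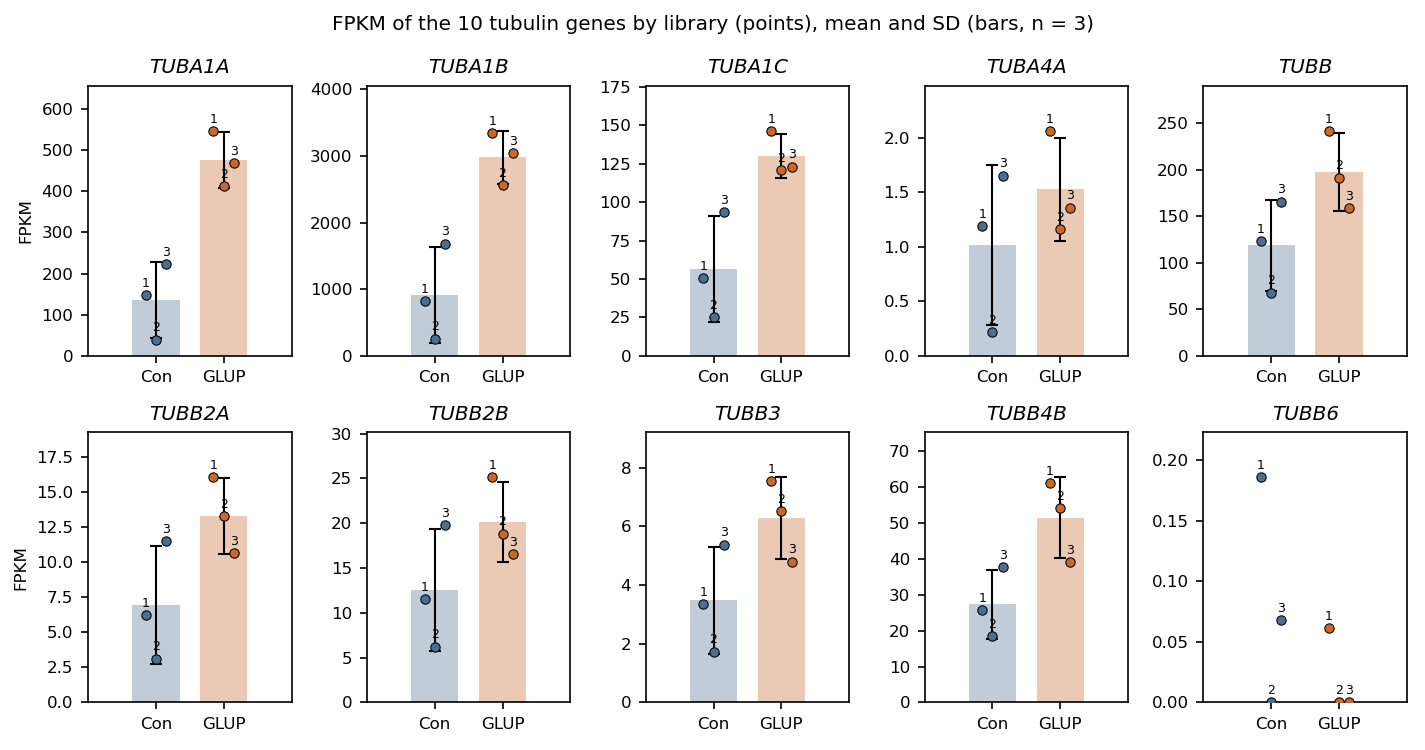
FPKM of the 10 tubulin genes in each library, 1 panel per gene with its own linear axis from 0; points are libraries numbered by replicate, bars the group means and error bars the SD (n = 3), left out for TUBB6, which has listed values of 0. In TUBA1A, TUBA1B, TUBA1C and TUBB4B the 3 GLUP points lie above the 3 Con points, and in every tested gene Con 2 is the lowest point and Con 3 the highest Con point.

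All 9 tested members had a higher mean in GLUP, as did 34.5% of the 7406 genes tested, and their median log2 fold change was 0.92 against -0.23 over all tested genes. Changes relative to that median are therefore larger, at 2.33 for TUBA1A, 2.29 for TUBA1B, 1.60 for TUBA1C and 0.61 to 1.21 for the other 6. With a trend in GC content and transcript length removed from each library, the median was 0.67 over the members and 0.008 over all tested genes, of which 50.8% then had a higher mean in GLUP. At an adjusted p under 0.05, limma called 0 members higher, and 0.0% of all genes tested. At an unadjusted p under 0.05, 5 of the 9 (TUBA1A, TUBA1B, TUBA1C, TUBB2A and TUBB4B) had higher means in GLUP, against 4.46% of all genes, and 0 had lower means, against 17.2%. In 4 of the 9 every GLUP library was above every Con library, against 7.55% of all genes, and in 0 every GLUP library was below, against 22.7%. An exact permutation test of 1 gene with 3 libraries against 3 cannot go below p = 0.1.

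The order of the Con libraries was shared by the members. Con 2 was the lowest of the 6 libraries and Con 3 the highest of the Con libraries in 9 of the 9 tested members, an order seen in 15.3% of all tested genes. The Con spread was therefore wide, from 258 to 1687 FPKM for TUBA1B, and the result depended on which Con library was in the fit. Without Con 2, the log2 fold changes were 1.38 for TUBA1A, 1.33 for TUBA1B, 0.90 for TUBA1C and 0.05 to 0.68 for the other 6, and limma called 0 members and 3 of the 7406 genes. Without Con 3, limma called 5 members past an adjusted p of 0.05, against 2.20% of all genes called higher and 18.5% called in either direction. These were TUBA1A (log2 fold change 2.61, adjusted p = 0.0295), TUBA1B (2.69, adjusted p = 0.0285), TUBA1C (1.82, adjusted p = 0.0289), TUBB2A (1.37, adjusted p = 0.0369) and TUBB4B (1.18, adjusted p = 0.0445). The Con libraries left in this fit, Con 1 and Con 2, had GC correlations of -0.339 and -0.595, against 0.338 to 0.54 in GLUP. Group and base composition therefore cannot be told apart in it. After removal of the GC and length trend, the values were 2.14 for TUBA1A, 2.04 for TUBA1B and 1.50 for TUBA1C, close to those of the uncorrected fit. For TUBB2A, TUBB3 and TUBB4B, with transcripts of 59.3%, 62.2% and 59.3% GC, the values moved down to 0.67, 0.39 and 0.62, and for TUBB2B and TUBA4A they were 0.57 and 0.25. TUBB, the most abundant beta gene, with 51.1% GC, moved up from 0.80 to 0.87.

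**Figure D2:**
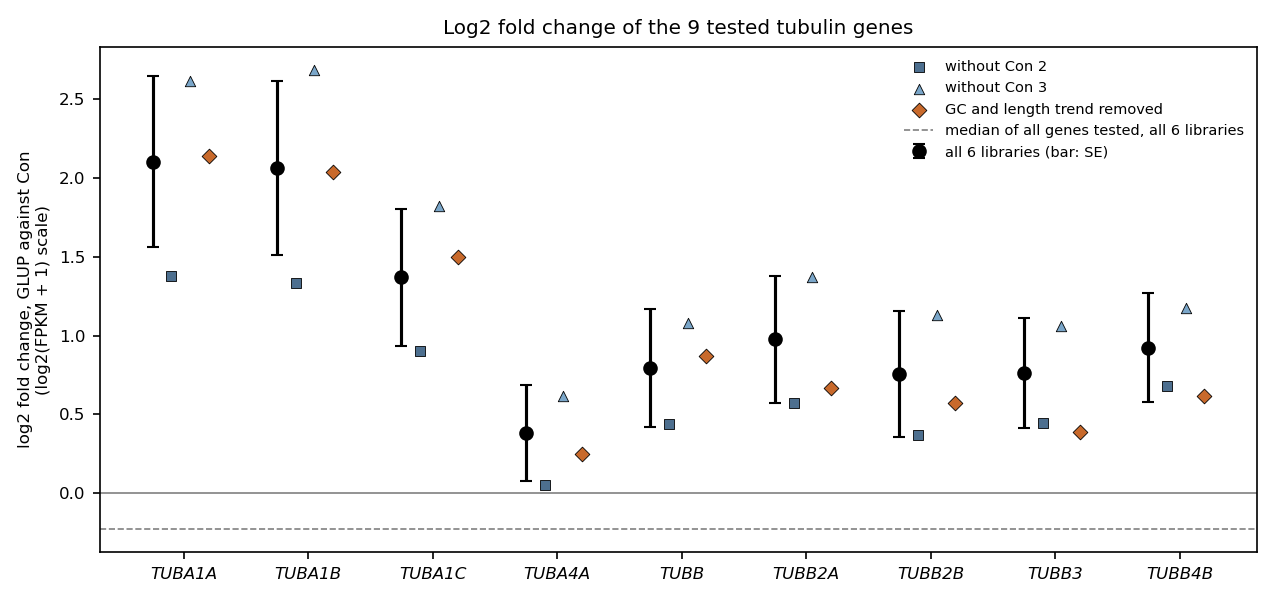
Log2 fold change of GLUP against Con for the 9 tested tubulin genes on the log2(FPKM + 1) scale. Black points with SE are the fit on all 6 libraries, squares and triangles the fits without Con 2 and without Con 3, diamonds the fit after a GC and length trend was removed, and the dashed line is the median of all tested genes (-0.23). All points lie above 0, and TUBA4A without Con 2 (0.05) is the closest to it.

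Next, the makeup of each class was described as isotype shares, the FPKM of a gene as a percent of the summed FPKM of the listed genes of its class in the same library. A share does not depend on how a library is scaled. TUBA1B held 80.5%, 79.9% and 84.2% of alpha tubulin in Con 1 to 3 and 82.8%, 82.7% and 83.7% in GLUP 1 to 3. TUBA1A held 11.1% to 14.5% in Con and 12.9% to 13.5% in GLUP. Both ranges overlapped, so that for these genes the difference in share was within the spread between libraries. TUBA1C held 4.96%, 7.88% and 4.66% in Con and 3.63%, 3.90% and 3.38% in GLUP. Its share was lower in each GLUP library than in each Con library (5.83% ± 1.78 and 3.64% ± 0.259, SD, n = 3, two-sided exact permutation p = 0.1, the smallest possible, and 0.5 adjusted over the 10 shares). TUBA4A held 0.117%, 0.0671% and 0.0825% in Con and 0.0511%, 0.0377% and 0.0374% in GLUP, also without overlap (exact permutation p = 0.1, adjusted p = 0.5). The mean FPKM of TUBA1C and of TUBA4A was higher in GLUP, so the lower shares go with a larger rise in the alpha sum. TUBA4A was also near the minimum mean of 1 FPKM, and its FPKM overlapped between the groups.

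The order of the beta isotypes was the same in all 6 libraries for the first 5. TUBB held 72.4%, 69.7% and 69.1% of beta tubulin in Con and 68.8%, 67.4% and 69.1% in GLUP. TUBB4B came next with 15.1%, 18.9% and 15.7% in Con and 17.4%, 19.1% and 17.0% in GLUP. TUBB2B held 6.38% to 8.24% in Con and 6.62% to 7.17% in GLUP, TUBB2A 3.19% to 4.78% and 4.56% to 4.67%, and TUBB3 1.78% to 2.24% and 2.08% to 2.29%. TUBB6 was at or below 0.109% throughout. All 6 beta shares overlapped between the groups, with exact permutation p-values of 0.2 to 0.9. TUBB2A stood at 53.9%, 49.99% and 58.0% of the level of its near-copy TUBB2B in Con and at 63.9%, 70.4% and 64.3% in GLUP, which did not overlap, but 55.6% of the 100-base windows of the TUBB2A transcript also occur in transcripts of other genes, so the split of reads between the pair is uncertain.

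**Figure D3:**
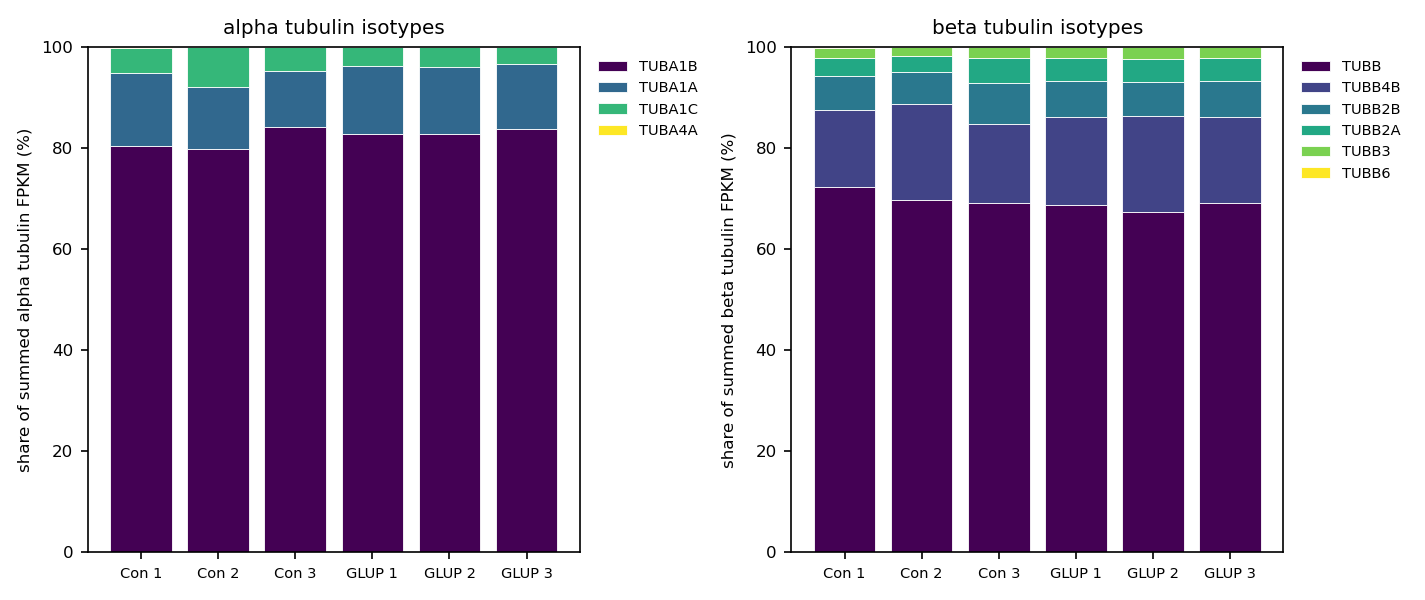
Isotype shares by library as stacked bars, for alpha tubulin on the left and beta tubulin on the right, each bar summing to 100% of the FPKM of the listed genes of the class. TUBA1B fills 79.9% to 84.2% of the alpha bars and TUBB 67.4% to 72.4% of the beta bars, and TUBA4A and TUBB6 are too thin to be seen.

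The classes differed in size. Summed alpha tubulin was 1018, 323 and 2005 FPKM in Con and 4037, 3093 and 3637 in GLUP, a ratio of means of 3.22 with no overlap. Summed beta tubulin was 171, 97.6 and 240.2 FPKM in Con and 352, 284 and 230.3 in GLUP, a ratio of 1.70, and GLUP 3 lay below Con 3. The alpha to beta ratio was 5.97, 3.31 and 8.35 in Con and 11.5, 10.9 and 15.8 in GLUP (5.87 ± 2.52 and 12.7 ± 2.68, SD, n = 3), again without overlap. No p is given for these sums because the members were a chosen list. With TUBA1B left out the ratio was 1.17, 0.666 and 1.32 in Con and 1.98, 1.88 and 2.58 in GLUP, still without overlap. TUBA1A and TUBA1C share sequence with TUBA1B, so its reads may be counted under them, which was not tested. Together, the 10 genes held 0.131%, 0.0456% and 0.237% of the FPKM of the Con libraries and 0.469%, 0.356% and 0.401% of the GLUP libraries.

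**Figure D4:**
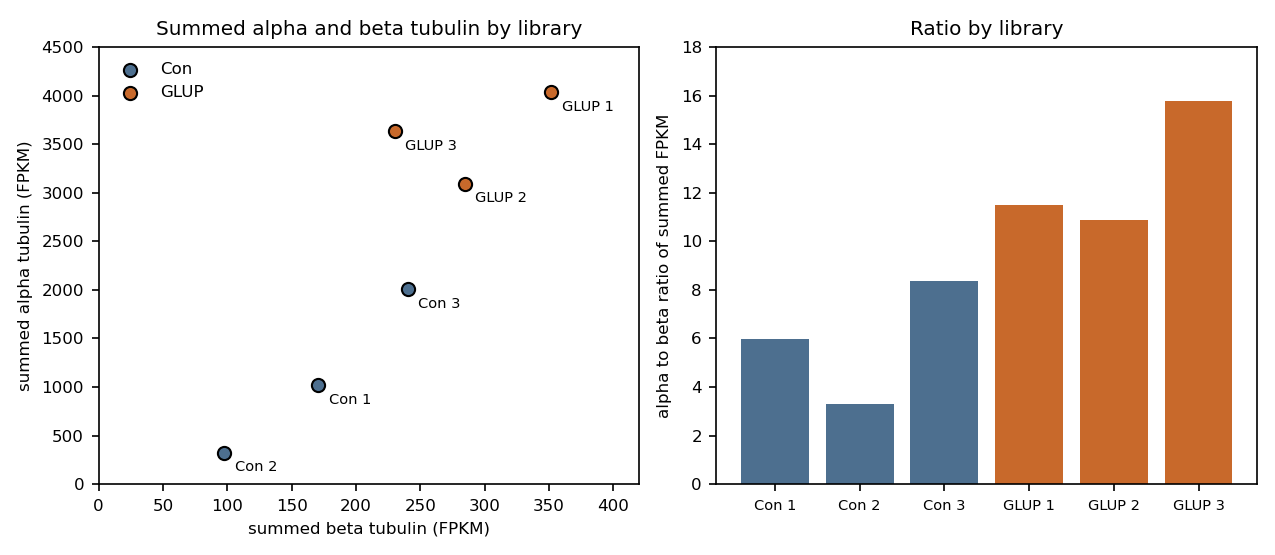
Left, summed alpha against summed beta tubulin FPKM in each library; right, their ratio by library. The 3 GLUP libraries have the highest alpha sums (3093 to 4037 FPKM) and ratios (10.9 to 15.8), whereas on the beta axis Con 3 (240.2 FPKM) lies between GLUP 3 (230.3) and GLUP 2 (284).

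Several members share sequence or position with other rows of the table, and strand-specific counting is not stated, so their values are not independent. TUBA1B-AS1, a long noncoding RNA gene on the plus strand (chr12:49521565-49582267), overlaps TUBA1B over its 3616 bases, and 65.4% of the 100-base windows of the TUBA1B transcript have their complement in its transcripts. It stood at 251, 33.2 and 480.4 FPKM in Con and 1305, 845 and 998 in GLUP, with a log2 fold change of 2.69 (SE 0.78, limma unadjusted p = 0.00642, adjusted p = 0.194). That was 30.7%, 12.9% and 28.5% of the TUBA1B level in Con and 39.0%, 33.0% and 32.8% in GLUP. Without strand, reads of TUBA1B and of TUBA1B-AS1 cannot be told apart where they overlap. Other members share this limit. TUBA1B-AS1 also overlaps TUBA1A over 3799 bases. Windows with their complement in transcripts of other genes made up 15.6% for TUBA1A, 28.1% for TUBA1C, 27.1% for TUBA4A and 18.2% for TUBB. For TUBA4A the other gene was STK16, at 1.17, 0.422 and 1.54 FPKM in Con and 1.58, 2.75 and 1.57 in GLUP. On the same strand, 37.2% of TUBA1B windows, 21.2% of TUBA1A windows and 12.3% of TUBA1C windows occur in other genes, chiefly in each other. For TUBB3 it was 92.5%, because an annotated gene that reads through it holds nearly all of its transcript. That gene was listed at 0 in 5 libraries and at 0.546 FPKM in GLUP 1.

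Tubulin pseudogenes were low. Of 15 alpha and 35 beta tubulin pseudogenes in the table, 1 and 2 had a mean of at least 1 FPKM. The alpha copy TUBAP2 stood at 1.73, 0.779 and 4.36 FPKM in Con and 8.73, 8.17 and 11.2 in GLUP (log2 fold change 1.80, SE 0.39, limma unadjusted p = 0.00102, adjusted p = 0.194). It stayed between 0.212% and 0.369% of TUBA1B in all 6 libraries. The beta copy TUBBP1 stood at 1.82, 0.567 and 2.69 FPKM in Con and 4.72, 4.21 and 3.50 in GLUP, or 0.834% to 1.62% and 1.95% to 2.20% of TUBB. TUBB2BP1 stood at 0 to 1.31 FPKM in Con and 1.09 to 1.82 in GLUP. Whether these values are transcripts of the copies or reads of the parent genes was not tested.

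Of 13 other tubulin genes, 9 were below the minimum and 4 of those were at 0 in all libraries. The 4 tested belong to the gamma, delta and epsilon tubulins of centrosomes and basal bodies. TUBG1, the main gamma tubulin that nucleates microtubules, stood at 34.8, 8.11 and 42.5 FPKM in Con and 58.0, 51.9 and 41.8 in GLUP (log2 fold change 1.08, limma adjusted p = 0.256), with an overlap through Con 3. TUBG2, its minor copy, stood at 2.46, 1.08 and 3.08 in Con and 5.23, 4.20 and 4.41 in GLUP (0.86, limma adjusted p = 0.198). TUBD1, the delta tubulin, lay the other way at 4.47, 4.49 and 2.48 in Con and 2.12, 1.86 and 2.10 in GLUP (-0.64, limma adjusted p = 0.213). TUBE1, the epsilon tubulin, stood at 8.12, 8.41 and 5.56 in Con and 5.34, 4.34 and 4.67 in GLUP (-0.52, limma adjusted p = 0.276). The groups of TUBG2, TUBD1 and TUBE1 did not overlap. Over all tested genes, every GLUP library was above every Con library in 7.55% and below in 22.7%. Transcript GC content was 57.6% for TUBG1, 58.8% for TUBG2, 40.7% for TUBD1 and 38.2% for TUBE1, and its part in these values was not tested.

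The direction of the means in the pathway lists was read against all tested genes, of which 65.5% had a lower mean in GLUP, and 4.46% had a higher and 17.2% a lower mean at an unadjusted p under 0.05. The genes that fold tubulin stood near these shares. Among 22 listed genes of the CCT chaperonin, prefoldin and the tubulin cofactors, 21 were tested, 6 had a higher and 15 a lower mean, and their median log2 fold change of -0.27 lay close to the -0.23 of all genes. None passed the adjusted threshold, and at an unadjusted p under 0.05 there were 0 higher and 3 lower. In 1 of the 21 every GLUP library was above every Con library, against 7.55% of all genes, and in 6 below, against 22.7%. TBCB, a cofactor that works on alpha tubulin, stood at 45.8, 16.3 and 11.96 FPKM in Con and 5.54, 7.84 and 7.62 in GLUP (log2 fold change -1.46, SE 0.45, limma adjusted p = 0.194). CCT8, a chaperonin subunit, stood at 129, 143 and 85.9 in Con and 69.9, 60.5 and 60.0 in GLUP (-0.87, limma adjusted p = 0.198). PDCL3, a co-chaperone of the chaperonin, stood at 39.1, 90.6 and 22.0 in Con and 16.8, 18.4 and 17.4 in GLUP (-1.24, limma adjusted p = 0.198). These are the 3 genes of the list with the smallest p.

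The autoregulation genes were low, with a sum over 12 genes of 66.1 to 112 FPKM in Con and 46.8 to 64.3 in GLUP. Of 8 tested, 2 had a higher and 6 a lower mean, which is near the share over all genes, and 0 passed the adjusted threshold. The median log2 fold change was -0.32 against -0.23 over all genes. TTC5, the factor that recognises nascent tubulin, had means of 1.24 and 1.51 FPKM (0.18, limma unadjusted p = 0.545). CNOT1, the scaffold of the CCR4-NOT deadenylase, stood at 8.02, 27.9 and 7.82 FPKM in Con and 5.12, 4.84 and 6.24 in GLUP (-1.05, limma adjusted p = 0.215). CNOT2, another subunit, stood at 3.55, 6.31 and 3.41 in Con and 1.75, 2.20 and 3.10 in GLUP (-0.67, limma adjusted p = 0.227). For CNOT7, a catalytic subunit, the log2 fold change was -0.70 (limma adjusted p = 0.253) and the groups overlapped.

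Of 17 enzymes that modify tubulin after translation, 6 passed the minimum, 4 with a higher and 2 with a lower mean, against 34.5% of all genes with a higher mean, and 0 at an unadjusted p under 0.05. The smallest p-values were those of TTLL12, a member of the tubulin tyrosine ligase family (log2 fold change 0.44), AGBL5, a deglutamylase (0.34), and the deacetylase SIRT2 (0.31). Of 14 genes of the gamma tubulin ring complex, the template from which microtubules are nucleated, 9 were tested, 2 with higher and 7 with lower means, against 65.5% lower over all genes. At an unadjusted p under 0.05, 1 was higher and 1 lower, against 4.46% and 17.2% of all genes. In 1 every GLUP library was above every Con library and in 5 below, against 7.55% and 22.7%. The 2 with higher means were the gamma tubulins TUBG1 (log2 fold change 1.08) and TUBG2 (0.86), given above. The sum over the 14 genes was 156 to 186 FPKM in Con and 119 to 131 in GLUP. MZT2B, a small subunit of the complex, stood at 90.9, 83.0 and 75.6 FPKM in Con and 26.0, 38.4 and 45.1 in GLUP (-1.20, SE 0.31, limma unadjusted p = 0.00333, adjusted p = 0.194), while MZT1 was at -0.64 (limma adjusted p = 0.240). Of 29 genes of microtubule stability and dynamics, 18 were tested, 6 with higher and 12 with lower means, and at an unadjusted p under 0.05 there were 0 higher and 5 lower, against 65.5% with lower means over all genes and 17.2% lower at that p. With the GC and length trend removed, 2 of the 18 were at that p, against 1334 of the 7406 genes. CKAP2, a spindle-associated protein, stood at 15.8, 34.6 and 8.61 FPKM in Con and 7.37, 7.28 and 7.29 in GLUP (-1.11, limma adjusted p = 0.202). MAP1B, which stabilises microtubules, stood at 25.8, 82.1 and 17.8 in Con and 14.7, 17.2 and 9.43 in GLUP (-1.27, limma adjusted p = 0.204). Both were highest in Con 2. Transcript GC content was 36.7% for CKAP2 and 44.4% for MAP1B, and its part in these values was not tested. For KATNA1, the severing subunit of katanin, the log2 fold change was -0.66 (limma adjusted p = 0.215). Stathmin, STMN1, which sequesters dimers, had the means 713 and 959 FPKM (0.44, limma unadjusted p = 0.179). Of the 64 tested genes in these 6 lists, none passed the adjusted threshold.

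Across the 6 libraries, the genes outside the members whose log2(FPKM + 1) followed the log2 summed tubulin most closely were RPP25L (Pearson r 0.998), ARPC1B (0.996), PRPF31 (0.996), BSG (0.995) and PPIB (0.994). They are given as a description over 6 libraries whose base composition differed as described above, and 214 genes, or 2.89% of those tested, had r above 0.95. ARPC1B, a subunit of the actin-nucleating Arp2/3 complex, stood at 52.0, 12.1 and 96.8 FPKM in Con and 189, 168 and 195 in GLUP. PPIB, a peptidyl-prolyl isomerase of the endoplasmic reticulum, stood at 145, 74.9 and 192 in Con and 304, 273 and 319 in GLUP. Both had Con 2 lowest and Con 3 the highest Con library, the order of the tubulin sum that they were chosen for following. Among the members, TUBA1B (0.9998), TUBA1C (0.997) and TUBA1A (0.996) followed the sum closest, in which TUBA1B is itself the main part, and TUBA4A (0.875) least.

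Since GLUP was made to bind TEAD4, promoter windows were searched for the core letters of the TEAD motif, CATTCC, and of the NF-Y motif, CCAAT, on both strands. The letters of these motifs can overlap, but the matches in the members' windows did not. Windows run from 250 bases before to 50 bases after an annotated start (RefSeq, GRCh38.p14), and all 10 members had at least 1 among 15 windows in all. CATTCC was in 14.0% of all 35093 windows and in 2 of the 15 member windows, those of TUBB4B and TUBB6. CCAAT was in 34.6% of all windows and in 9 of the 15 member windows, which belong to 7 of the 10 members (TUBA1A, TUBA1C, TUBB, TUBB2B, TUBB3, TUBB4B and TUBB6). Windows of a gene can overlap, and the same TUBA1C match was counted in more than 1 of its windows. The match in TUBB4B, the 1 tested member with CATTCC, and 1 CCAAT match each of TUBA1A and TUBA1C, which hold further matches, are printed on the strand of the gene with the motif in capitals.
TUBB4B (window GRCh38 chr9:137241037-137241336, plus strand, motif 62 bases before the start): tctggcagccCATTCCgagactagcg
TUBA1A (window GRCh38 chr12:49189031-49189330, minus strand, motif 125 bases before the start): gtcgcttgcaCCAATcaccagtctc
TUBA1C (window GRCh38 chr12:49264832-49265131, plus strand, motif 160 bases before the start): tttgaatccgCCAATcagcgccgcg
A match is a description of the letters and not a bound site. TUBA1B, with the largest level, held neither motif in its window, which says only that these letters are not there.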

How the data were processed

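The authors deposited 1 table of FPKM per gene for 6 samples of HGC-27 cells (3 Con, 3 GLUP, grouped by sample title), and the values were used as deposited. The submitters' processing notes name HISAT2, Cufflinks and RSEM without versions and the build GRCh38.p10, whereas the identifiers are of a GENCODE annotation lifted to GRCh37. How the tools were combined is not given in the sources used here. Of 62492 rows, 49 pseudoautosomal copies were summed with their counterparts. FPKM carries no counts, so depth is unknown and count tests were not used.

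Values of the 7406 genes whose mean reached 1 FPKM were transformed to log2(FPKM + 1) and fitted with limma 3.58.1 (lmFit, eBayes with trend, two-sided, no covariates) in R 4.3.3, with p-values adjusted by Benjamini-Hochberg across every tested gene and a threshold of 0.05. TUBB6 lay below the minimum. Single shares were compared with exact permutation tests. The fit was tested on simulated data.

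Members and lists were chosen with earlier results of these data known. Named genes were the 10 members, the 3 genes of each list with the smallest p (and others where a level was needed), the 5 genes most correlated with the tubulin sum, and pseudogenes with a mean of at least 1 FPKM. TUBA1B-AS1 was added after its values were seen. Sequences came from GENCODE and RefSeq, and some are not reported here. Tables were handled with Python 3.11.15 and pandas 2.3.3.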

Additional observations from a re-analysis of the deposited data

How the results depend on the processing

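All 178 fold changes of the 9 tested members under the other settings (pseudocount, filter, scaling, base composition, variance estimate, replicate block and leaving out each library) were above 0. Median centring was chosen after seeing the data. Leaving out each library gave 0 to 5 members past the adjusted threshold, 2 to 6 of the 10 isotype shares without overlap, and 0 to 13 of 64 pathway genes past it. The highest of each came without Con replicate 3, where 18.5% of all tested genes passed, and without Con replicate 2 there were 4 shares without overlap. The log2 ratio of summed alpha tubulin was 1.25 to 2.42 and that of summed beta tubulin 0.49 to 1.11 when 1 library was left out. Over all settings, the log2 fold change of TUBA4A ranged from 0.05 without Con replicate 2 to 0.83 with a pseudocount of 0.1. The cause of these differences was not tested. With the replicate block, 0 members passed the adjusted threshold, and TUBA1A had a log2 fold change of 2.10 (limma adjusted p = 0.157). Deviations of same-numbered libraries correlated at 0.132, -0.0102 and -0.173, so the numbers were not read as pairs. FPKM gives no depth, so no limit of detection could be set for TUBB6 or TUBA4A.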
